A study of Caenorhabditis elegans with 79 samples.

Results

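The comparison described here sets small RNAs that co-immunoprecipitated with HA-tagged ALG-1 against small RNAs of the whole-animal lysate, in Caenorhabditis elegans with wild-type rde-4. It was chosen by the column names of the HA::ALG-1 table: 3 co-IP libraries and 3 input libraries, 6 of the 79 samples in the series. The animals were gravid hermaphrodite adults grown at 20 °C for 68 or 72 h under nrfl-1 RNAi, in which bacteria feed the animals double-stranded RNA against nrfl-1. Their genotype is unc-119(ed3) with the insertion ram4, which carries an alg-1 gene tagged with 3 HA epitopes and a TEV site together with Cbr-unc-119(+). The labels give no mutation of the native alg-1 gene, so untagged ALG-1 may be present beside the tagged protein, and they name no co-IP from an untagged strain. The background of the precipitation was therefore not measured. A second arm of the same table holds 3 co-IP and 3 input libraries of this transgene with rde-4(syb6665), also under nrfl-1 RNAi, and is used below for 1 comparison. The study addresses how small RNAs are loaded onto Argonautes and the part of the dsRNA-binding protein RDE-4 in it. In this part of the data the question is which single miRNAs the ALG-1 co-IP holds at a higher or lower level than the lysate.

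ALG-1 is one of the Argonautes that carry miRNAs in C. elegans. A miRNA gene is transcribed into a hairpin, which Drosha and Dicer cut into a short duplex of its 5p and 3p arms. An Argonaute normally keeps one arm, the guide, while the other, the passenger or star strand, is discarded. ALG-1 shares its role with ALG-2 throughout the body and with ALG-5 in the germline, and RDE-1, the Argonaute of RNA interference, also binds some miRNAs. Families of miRNAs share a seed near their 5′ end and can repress the same targets: let-7 and lin-4 time larval development, the mir-35 family is made in oocytes and embryos, and the mir-51 and mir-58 (bantam-related) families are broadly expressed.

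Levels are in RPM, the reads of a row scaled to library depth as deposited, and log2 changes compare log2(RPM + 1) between co-IP and input, which understates changes of low rows. Depth, read from the steps of low piRNA values, lay between 12.3 and 31.8 M reads in the 6 libraries, so that 3 reads, the floor used here, correspond to 0.094 to 0.244 RPM. Replicate libraries correlated across tested features with r between 0.988 and 0.996. Of 25897 rows, 658 averaged 10 RPM or more across the table's 12 libraries and were tested with limma. With p values adjusted by Benjamini and Hochberg (BH) and a threshold of 0.05, 93.2% of tested rows were called, 7.45% higher and 85.7% lower in the co-IP, so a call alone is the usual outcome in this comparison. RPM is relative within a library, so a higher value means a larger part of the library and not more molecules.

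The co-IP libraries were almost entirely miRNA. The miRNA share of the summed RPM was 93.7%, 93.0% and 93.8% in the inputs and 99.5%, 99.4% and 99.3% in the co-IPs. The means were 93.5% ± 0.443 and 99.4% ± 0.111 (SD, n = 3 each), and the groups did not overlap. A two-sided exact permutation test gave p = 0.1, the smallest that 3 against 3 libraries allow. Summed over the tested rows alone, the difference was 3.00 instead of 5.90 percentage points. The piRNAs and the 22G- and 26G-RNAs of genes were nearly all lower: 441 of 443 tested piRNAs (median -3.47), 36 of 36 22G-RNAs of the CSR class (median -3.62) and 4 of 4 26G-RNAs of the ERGO class (median -3.73). Summed over all its rows, the piRNA class held 1767 to 3760 RPM in a co-IP library and the CSR class 225 to 357. Tested rows of these classes therefore passed the minimum largely through the input, where they were high. The counts describe the rows that passed. The piRNAs also make up 441 of the 564 lower calls over all tested rows. The siRNAs of the RNAi target nrfl-1 changed less. Its 23H row was at 720.0, 757.5 and 788.6 RPM in the inputs and at 493.2, 462.3 and 614.4 in the co-IPs (log2 change -0.54 ± 0.16 SE, adjusted p = 0.00322, limma). Its 22G row averaged 71.4 ± 5.94 RPM in the lysate against 74.2 ± 7.68 after precipitation (n = 3 each, adjusted p = 0.804).

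The 23H-RNA class, in which each row is 1 sequence, was mixed: of 20 tested rows, 10 were higher in the co-IP, 7 lower and 3 not called, with a median log2 change of 0.45. All 4 tested rows of ribosomal RNA were higher, with log2 changes of 1.97 to 3.62. Their input means were 1.06 to 8.07 RPM, so they passed the minimum of 10 RPM only through the co-IP, where they were high. The count of 4 therefore describes the rows that passed, not ribosomal RNA rows at large. Of the rows of F43E2.6, 3 of 4 were higher (-1.60 to 1.34 over the 4), and of 2 rows of a small hairpin RNA 1 was lower and 1 not called. Rows of mir-5592 are shown because forms of the same RNA that differ only at their ends moved in opposite directions, and were chosen after their values were seen. Of 10 tested rows from mir-5592 (X:13759245-13759308 on the - strand in WBcel235, with a copy annotated on the other strand), 3 were higher and 5 lower. Letters in lower case are the 19 bases that 8 of the forms share, and capitals are the bases outside them.
mir-5592 form A: AttaaacggtaagggccggcTGG
mir-5592 form B: ttaaacggtaagggccggcTGG
mir-5592 form C: ttaaacggtaagggccggcTG
mir-5592 form D: TAttaaacggtaagggccggcT
mir-5592 form E: TGTAttaaacggtaagggccggc
mir-5592 form F: GTAttaaacggtaagggccggc

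Form A was at 6.38, 4.31 and 4.32 RPM in the inputs and at 33.4, 24.5 and 21.8 in the co-IPs, a log2 change of 2.19 with an adjusted p of 8.94e-09 in limma. Forms B and C were also higher, with log2 changes of 1.07 and 0.66. Form F was at 61.0, 58.1 and 62.3 RPM in the inputs and at 7.63, 6.83 and 5.02 in the co-IPs, a log2 change of -3.05 with an adjusted p of 1.03e-11 in limma. Forms D and E were lower as well, at -2.13 and -1.46. The forms that were higher carry TG or TGG after the shared bases, but a further form with TG was not called (0.32, adjusted p = 0.223). Those that were lower have 2 or more extra bases before them, as do the 2 forms that were not called. Form A averaged under 10 RPM in the input and forms D and F in the co-IP, so these 3 passed the minimum only through the group where they were high. Another 2 rows of mir-5592, without the shared bases, were lower. These 2 averaged 5.28 and 3.68 RPM in the co-IP and also passed the minimum mainly through the input, where they were high.

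Of the 439 miRNA rows, 148 were tested. The 291 rows under the minimum include 63 at 0 in all 6 libraries, 147 with a mean under 1 RPM and 81 at 1 RPM or more; the highest single value among them was 16.9 RPM, of miR-70-5p in an input. Of the tested miRNAs, 39 were higher in the co-IP (7.45% of all tested rows were), 70 were lower (85.7% of all tested rows were) and 39 were not called, with a median log2 change of -0.29 beside -3.16 over all tested rows. The 3 co-IP libraries did not overlap the 3 inputs in 114 of the 148 tested miRNAs (77%), beside 93.9% of all tested rows, and in 106 of the 109 called. The changes ran from -5.18 to 4.78 with standard errors of 0.14 to 0.28, and 22 miRNAs had a log2 change of at least 1 and 43 of at most -1. Of the tested miRNAs, 22 had a mean under 10 RPM in the co-IP alone and 2 in the input alone, so these passed the minimum mainly through the group where they were high. The rows of miR-44-3p and miR-45-3p hold identical values in every library and are 1 observation listed under both names.

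**Figure D1:**
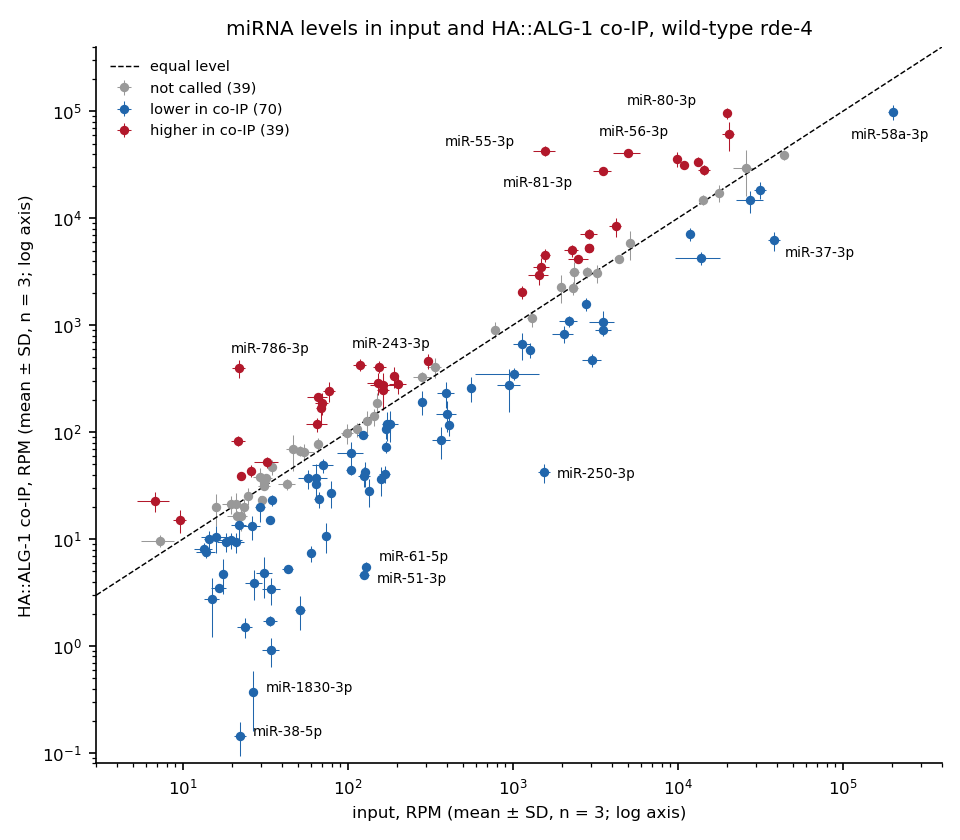
Mean RPM of the 148 tested miRNAs in the input (x axis) and the HA::ALG-1 co-IP (y axis), both on log axes, with SD bars over 3 libraries and colours for the call; the dashed line marks equal levels. miR-55-3p and miR-786-3p lie far above the line, miR-250-3p, miR-51-3p and miR-61-5p far below it, and miR-58a-3p, the most abundant in both, lies below it.

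The miRNA with the largest gain was miR-55-3p, a member of the mir-51 family (X:13144842-13144864 on the - strand, within an intron of F09A5.3, which lies on the other strand). It was at 1665, 1295 and 1741 RPM in the inputs and at 38471, 42491 and 48101 in the co-IPs. Every co-IP library was more than an order of magnitude above every input, and the mean was 27.5-fold higher (log2 change 4.78 ± 0.16 SE, adjusted p = 1.1e-16, limma). It was 39th by input level and 4th in the co-IP among the tested miRNAs, and its share of all miRNA reads went from 0.258% to 5.82%.

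miR-786-3p, on X from 7882804 to 7882826 on the + strand and known for its role in the timing of the defecation rhythm in the gut, was a rare miRNA with a similar gain. It was at 23.7, 22.4 and 19.7 RPM in the inputs and at 485.8, 337.3 and 378.2 in the co-IPs, 18.3-fold higher (log2 change 4.12 ± 0.19 SE, adjusted p = 6.16e-15, limma). Its hairpin partner, miR-786-5p, was under 1 RPM in all 6 libraries.

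miR-56-3p, encoded next to miR-55-3p (X:13144706-13144727), was at 6069, 4272 and 4633 RPM in the inputs and at 39013, 39098 and 44175 in the co-IPs, 8.17-fold higher (log2 change 3.04 ± 0.16 SE). miR-81-3p, of the mir-58 family (X:2431138-2431159), was at 4032, 3273 and 3248 RPM in the inputs and at 28317, 28344 and 26766 in the co-IPs, 7.90-fold higher (log2 change 2.99 ± 0.15 SE). miR-80-3p, of the same family (III:8865285-8865307), was at 20103, 18638 and 20715 RPM in the inputs and at 103212, 82999 and 102168 in the co-IPs, 4.85-fold higher (log2 change 2.27 ± 0.15 SE). These 3 had no overlap between groups, and their adjusted p in limma lay at or below 1.42e-12. The latter was the most abundant miRNA of co-IP replicate 3, where it held 12.8% of miRNA reads.

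The other 5 of the 10 with the largest gains were miR-58a-5p (log2 change 1.89), miR-64-5p (1.84), miR-243-3p (1.83), miR-787-3p (1.70) and miR-246-5p (1.62), with adjusted p values in limma of 3.2e-06 or lower. miR-64-5p, of the mir-63 group and encoded in an intron of gcn-1 on chromosome III, was the abundant one among them, at 9958, 9599 and 10294 RPM in the inputs and 42382, 32917 and 32554 in the co-IPs. miR-243-3p, known as a miRNA that RDE-1 binds, was at 113.9, 110.2 and 130.3 RPM in the inputs and at 487.9, 399.3 and 387.0 in the co-IPs. The remaining 29 miRNAs called higher had log2 changes between 0.48 and 1.61.

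The miRNA with the largest loss was miR-250-3p, of the mir-2 family (V:11769937-11769956 on the - strand). It was at 1704, 1482 and 1475 RPM in the inputs and at 38.3, 36.5 and 52.0 in the co-IPs, 36.8-fold lower (log2 change -5.18 ± 0.20 SE, adjusted p = 6.94e-16, limma). Its input level, 1554 ± 130 RPM, was close to that of miR-55-3p, 1567 ± 239 (n = 3 each), while in the co-IP the means were 42.3 and 43021 RPM.

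Of the 10 miRNAs with the largest losses, 7 were the arm with fewer reads in the input, while 108 of the 148 tested miRNAs were the other or only arm. All of the 10 except miR-250-3p averaged under 10 RPM in the co-IP. They passed the minimum only through the input, where they were high, so the count of 7 is not a result about rarer arms. miR-51-3p was at 123.9, 118.6 and 134.6 RPM in the inputs and at 4.69, 4.88 and 4.43 in the co-IPs, 26.9-fold lower (log2 change -4.48 ± 0.22 SE). miR-61-5p was at 135.6, 124.5 and 126.1 RPM in the inputs and at 5.44, 4.73 and 6.15 in the co-IPs, 23.7-fold lower (log2 change -4.34 ± 0.20 SE). Both had adjusted p values in limma of 1.94e-14 or lower, and in both the co-IP libraries lay close together, far below the inputs.

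The 5p arms of 4 mir-35 family hairpins belonged to the same set: miR-38-5p (log2 change -4.35), miR-35-5p (-4.21), miR-37-5p (-4.07) and miR-36-5p (-3.68). miR-38-5p was at 21.0, 21.7 and 24.5 RPM in the inputs and at 0.09, 0.15 and 0.19 in the co-IPs, the first of which lies below the value of 3 reads, so no fold is given. miR-37-5p was at 49.0, 49.6 and 56.1 RPM in the inputs and at 2.11, 1.46 and 2.98 in the co-IPs. The set was completed by miR-1830-3p (-4.35), miR-65-3p (-3.31) and miR-43-3p (-3.03), of which miR-1830-3p and miR-43-3p are the arm with more reads in the input. miR-1830-3p was at 27.6, 27.1 and 25.3 RPM in the inputs and at 0.39, 0.15 and 0.57 in the co-IPs. The remaining 60 miRNAs called lower had log2 changes between -2.88 and -0.38.

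**Figure D2:**
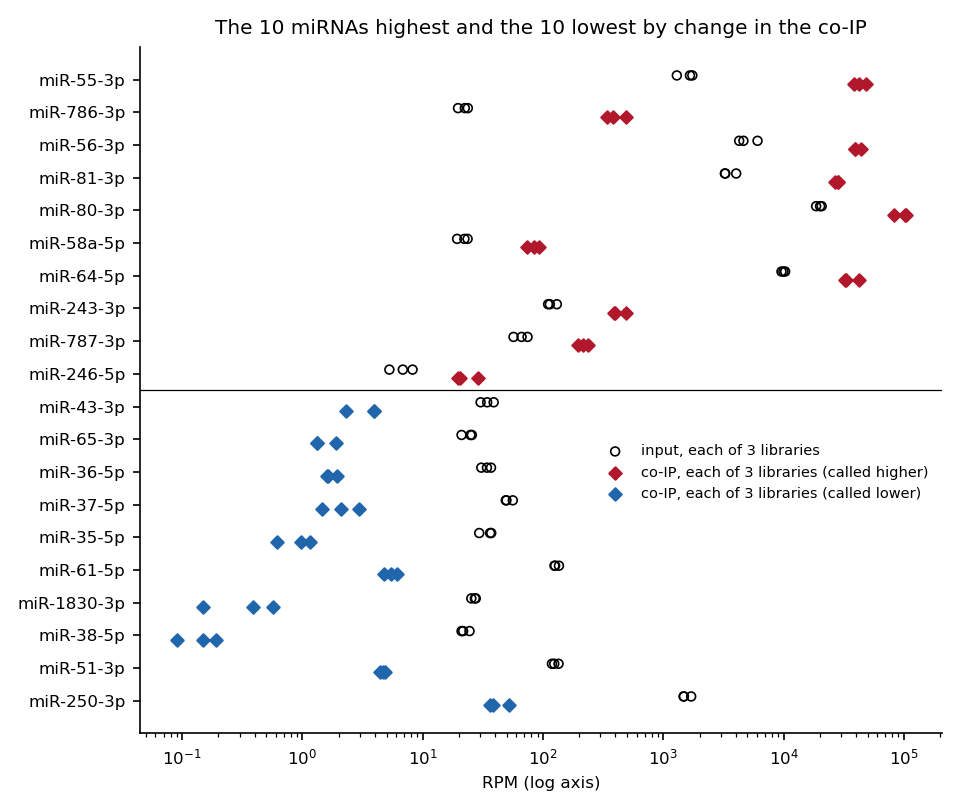
RPM (log axis) of the 10 miRNAs with the largest gains and the 10 with the largest losses in each of the 3 input (open circles) and 3 co-IP libraries (filled diamonds). Inputs and co-IPs are separate for each of the 20 miRNAs, and miR-38-5p and miR-1830-3p have the lowest co-IP values.

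The most abundant miRNAs also changed place. miR-58a-3p, the bantam-related miRNA that leads both fractions, fell from 199281, 189591 and 214149 RPM in the inputs to 116550, 85590 and 96599 in the co-IPs (log2 change -1.02 ± 0.15 SE, adjusted p = 1.23e-06, limma). It held 33.2% ± 0.627 of miRNA reads in the lysate and 13.4% ± 1.81 after precipitation. The mir-35 family members among the 8 most abundant were all lower: miR-37-3p at -2.65, miR-39-3p at -0.92 and miR-35-3p at -0.80. miR-37-3p went from 42065, 35651 and 38052 RPM to 7444, 4962 and 6278, from 3rd to 20th by level. miR-71-5p, known for its part in adult lifespan, was higher (log2 change 1.54 ± 0.20 SE, adjusted p = 1.12e-07), at 20027, 18784 and 22222 RPM in the inputs and at 43498, 60091 and 79260 in the co-IPs. Its co-IPs were spread widely, and all 3 lay above all inputs.

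Of these 8 miRNAs, 2 were not called. miR-70-3p, 2nd in the input, was at 43755, 43092 and 45334 RPM there and at 40105, 34723 and 42483 in the co-IPs (log2 change -0.18, 95% interval -0.48 to 0.13). It was called lower after scaling the libraries to equal totals over all rows, at -0.38. miR-1-3p, the muscle miRNA, was at 21056, 28277 and 28013 RPM in the inputs and at 17622, 27095 and 44688 in the co-IPs, so that its co-IPs covered the whole range of the inputs (log2 change 0.12, 95% interval -0.43 to 0.66). Its value turned to -0.08 after that scaling, to -0.23 without co-IP replicate 3 and to -0.02 without input replicate 1, so no direction is given.

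Members of the same family went in opposite directions in several lists. Each list holds both arms of the family's hairpins, and the arms have different seeds. For every list below, the shares to set beside its counts are 7.45% higher and 85.7% lower over all tested rows. Over tested miRNAs they are 26.4% and 47.3%, and no list was tested against these shares. Lower calls in the lists include arms that passed the minimum only through the input, such as miR-51-3p, miR-61-5p and miR-65-3p. In the mir-51 family, 4 of 8 tested members were higher and 4 lower. The gains were those of miR-55-3p and miR-56-3p above, of miR-51-5p (4424, 3802 and 4397 RPM in the inputs, 10398, 7649 and 7262 in the co-IPs; log2 change 0.99) and of the rare arm miR-54-5p (0.85). The losses were miR-51-3p above, miR-54-3p (adjusted p = 8.29e-06), miR-53-5p (-1.42) and miR-52-5p (-1.65). miR-52-5p was at 9018, 16215 and 16167 RPM in the inputs and at 4871, 3698 and 4224 in the co-IPs, and miR-53-5p was likewise lowest in input replicate 1, at 526.2 against 1246 and 1272 RPM. These near-identical miRNAs share that pattern, and how the counting splits their reads is not given in the sources used here. The summed share of the family in miRNA reads went from 4.62% ± 0.546 to 13.3% ± 0.712 (n = 3 each), so the gains outweighed the losses.

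In the mir-58 family, 4 of 8 tested members were higher, 2 lower and 2 not called. Of the lower ones, miR-82-5p averaged 4.77 RPM in the co-IP and passed the minimum only through the input. miR-82-3p was at 15789, 13386 and 14206 RPM in the inputs and at 25039, 28512 and 31051 in the co-IPs (log2 change 0.96). Together with miR-80-3p and miR-81-3p it moved against miR-58a-3p, and the summed share of the family went from 39.4% ± 0.474 to 34.0% ± 2.11. Within the family miR-58a-3p held most of the input, and in co-IP replicate 3 it was below miR-80-3p.

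In the mir-35 family, 12 of 15 tested members were lower, 2 higher and 1 not called, beside 85.7% of all tested rows and 47.3% of tested miRNAs lower. The lower members miR-35-5p, miR-36-5p, miR-37-5p and miR-38-5p averaged 0.14 to 2.18 RPM in the co-IP and passed the minimum only through the input. The family had a median log2 change of -1.73 and a summed share that went from 17.9% ± 1.62 to 6.42% ± 1.18. Its 3p arms spread from miR-37-3p at -2.65 and miR-36-3p at -1.73 to miR-40-3p, which was not called at 0.15, and miR-42-3p at 1.39. miR-36-3p was at 4161, 2931 and 3477 RPM in the inputs and at 1365, 822.8 and 1036 in the co-IPs. miR-42-3p was at 154.6, 142.6 and 170.3 RPM in the inputs and at 433.1, 353.0 and 447.3 in the co-IPs. It is the family member whose hairpin lies apart from the other 7, which are encoded together.

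The mir-63 group had 2 higher, 3 lower and 3 not called of 8, with miR-64-5p at 1.84 and miR-65-5p at 1.54 against miR-229-5p at -1.30 and miR-65-3p at -3.31. After scaling to equal miRNA totals 5 of the 8 were lower. Its summed share went from 6.91% ± 0.0353 to 11.8% ± 1.24. In the mir-2 family, 4 of 4 were lower, which is the usual outcome over all tested rows (85.7%): miR-250-3p, miR-43-3p, miR-250-5p (-2.53) and miR-2-3p (-1.84), and its summed share went from 0.337% ± 0.0244 to 0.0224% ± 0.00248. miR-43-3p and miR-250-5p averaged 3.38 and 3.91 RPM in the co-IP and passed the minimum only through the input. miR-2-3p was at 413.0, 388.1 and 431.8 RPM in the inputs and at 134.5, 88.9 and 123.3 in the co-IPs.

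Of the timing miRNAs, 2 of 10 tested let-7 family members were higher, 2 lower and 6 not called. miR-48-5p led the gains at 12814, 12923 and 13837 RPM in the inputs and at 34954, 30123 and 36422 in the co-IPs (log2 change 1.35 ± 0.15 SE, adjusted p = 1.51e-08, limma). let-7-5p itself was at 1913, 1961 and 1994 RPM in the inputs and at 1563, 2399 and 2851 in the co-IPs, with overlapping groups and no call (adjusted p = 0.383). The lowest was the rare arm miR-84-3p, at -0.79, which averaged 7.60 RPM in the co-IP and passed the minimum only through the input. The summed share of the let-7 family went from 2.97% ± 0.123 to 5.37% ± 0.128, most of it miR-48-5p. lin-4-5p was higher, from 1194, 1101 and 1106 to 2363, 1755 and 2028 RPM (log2 change 0.84 ± 0.16 SE, adjusted p = 3.44e-05), while its relative miR-237-5p was not called at 0.15.

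The mir-44 family had 2 higher and 2 lower of 6 tested. The pair miR-44-3p and miR-45-3p, counted as 1 above, was higher at 0.86, and miR-61-3p (-1.97) and miR-61-5p were lower. In the mir-72 family, 1 of 6 was higher (miR-73-3p, 1.02) and 4 lower, down to miR-72-3p at -2.84. miR-72-3p averaged 5.21 RPM in the co-IP and passed the minimum only through the input. Of 6 tested miRNAs known for single tissues, miR-228-5p of glia was higher at 0.76, and miR-60-3p of the gut was lower, at 789.9, 991.3 and 1079 RPM in the inputs and 184.9, 228.6 and 407.3 in the co-IPs (log2 change -1.87 ± 0.26 SE, adjusted p = 3.34e-07). miR-124-3p of sensory neurons was lower at -0.89 and miR-228-3p at -0.67, and both arms of mir-1 were not called. miR-124-3p and miR-228-3p averaged 9.47 and 8.06 RPM in the co-IP, so they passed the minimum mainly through the input, where they were high. The lysate is of whole animals, so a different level of the transgene among tissues and a different hold of ALG-1 on a miRNA cannot be told apart.

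**Figure D3:**
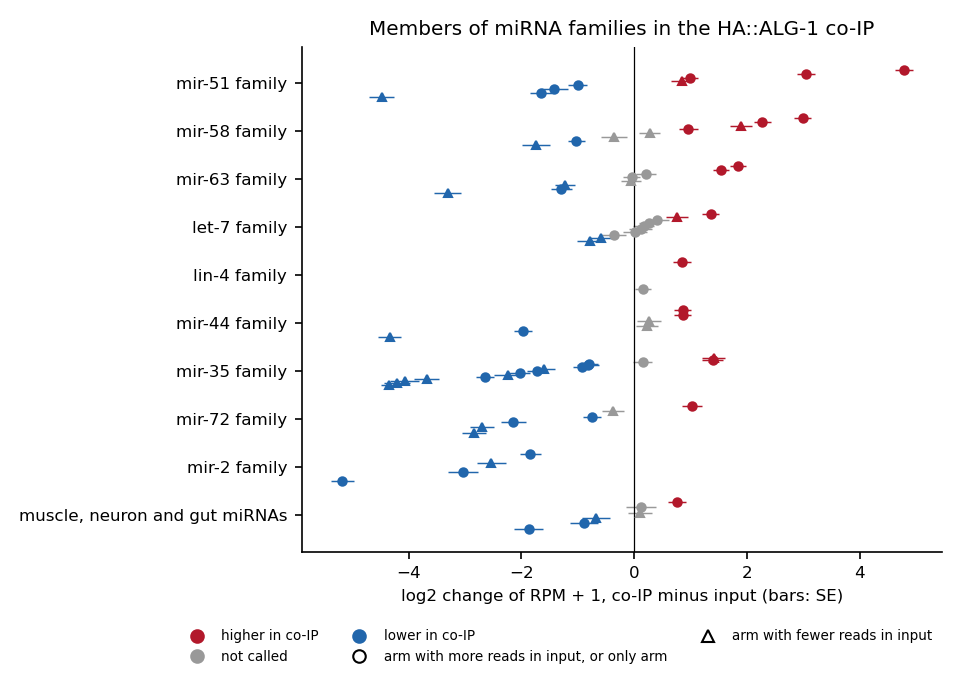
log2 change (co-IP minus input, with SE bars) of each tested member of 10 lists, 1 row for each list, coloured by call; circles are the arm with more reads in the input or the only arm, and triangles the arm with fewer. The mir-51, mir-58, mir-63, let-7, mir-44, mir-35 and mir-72 rows hold members on both sides of 0 that were called. So does the row of muscle, neuron and gut miRNAs, while the 4 points of the mir-2 family all lie below 0.

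The arms of each hairpin were compared through the ratio of 5p to 3p. Both arms are listed for 190 hairpins, 100 of which passed the minimum in at least 1 arm, and the ratio changed in 81 of them (81% of those tested), 36 toward 5p and 45 toward 3p. Where an arm is under 1 RPM, the pseudocount holds its value, and the ratio then follows the other arm alone. Among the 40 hairpins with both arms above the minimum, 35 were called, 25 toward the arm that has more reads in the input and 10 toward the arm with fewer. In these 40, the arm with fewer reads was higher in 9, lower in 22 and not called in 9. The arm with more reads was higher in 13, lower in 18 and not called in 9. Of the 22 rarer arms that were lower, 14 averaged under 10 RPM in the co-IP and so passed the minimum only through the input, where they were high, which no arm with more reads did. Of the 9 rarer arms that were higher, 1 (miR-246-5p) averaged under 10 RPM in the input. Among the 24 hairpins whose rarer arm averaged 10 RPM or more in both groups, that arm was higher in 8, lower in 8 and not called in 8. The counts over the 40 are therefore a description of the rows that passed, not of all rarer arms.

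The largest shift of all 100 was in mir-55, where the 5p arm went from 0.708% to 0.00751% of the hairpin's reads (ratio change -6.30 ± 0.18 SE, adjusted p = 1.25e-23, limma). miR-55-5p was at 11.2, 10.2 and 11.8 RPM in the inputs and at 2.63, 3.07 and 4.08 in the co-IPs, so the arms moved in opposite directions. In mir-51 the 3p arm went from 2.91% ± 0.159 to 0.0566% ± 0.0101 of the reads (ratio change 5.47 ± 0.20 SE). In mir-65 the 3p arm went from 0.218% to 0.00475% (4.85), and in mir-73 the 5p arm went from 4.94% to 0.388% (-3.73). The 5p arms of mir-56, mir-786 and mir-38 were at or below 0.24 RPM in each co-IP, and their ratio changes of -4.67, -4.43 and -3.54 are limited by depth and by the pseudocount.

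The opposite shift, toward the rarer arm, was seen in mir-58a, mir-250, mir-246 and mir-39. miR-58a-5p was at 19.3, 22.2 and 23.6 RPM in the inputs and at 92.0, 84.2 and 73.9 in the co-IPs, while its partner miR-58a-3p was lower, and the 5p arm went from 0.0108% to 0.0845% of the reads (ratio change 2.92 ± 0.19 SE, adjusted p = 7.69e-15, limma). miR-39-5p was at 67.9, 64.6 and 76.7 RPM in the inputs and at 175.7, 154.5 and 238.3 in the co-IPs. The other rarer 5p arms of its family that were tested, those of mir-35, mir-36, mir-37, mir-38 and mir-40, were each lower. Of these, all but miR-40-5p passed the minimum only through the input, where they were high. The rarer arm miR-42-5p, which was not tested, averaged 5.28 RPM in the inputs and 11.2 in the co-IPs. In mir-246 the 5p arm went from 0.245% to 1.41% of reads, with miR-246-3p lower (2747, 2651 and 2898 against 1568, 1385 and 1823 RPM). miR-246-5p averaged 6.78 RPM in the input and passed the minimum only through the co-IP, where it was high. In mir-250 both arms were lower, the abundant arm more so. The ratios of mir-1830 and mir-75 also shifted toward the rarer 5p arm (3.62 and 3.36); miR-75-5p averaged 2.54 RPM in the lysate and 10.54 after precipitation, and miR-75-3p 126.0 and 38.9. The arm with more reads differed between input and co-IP in 2 of the 100 hairpins. One was mir-1830, where both arms averaged under 1 RPM in the co-IP.

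**Figure D4:**
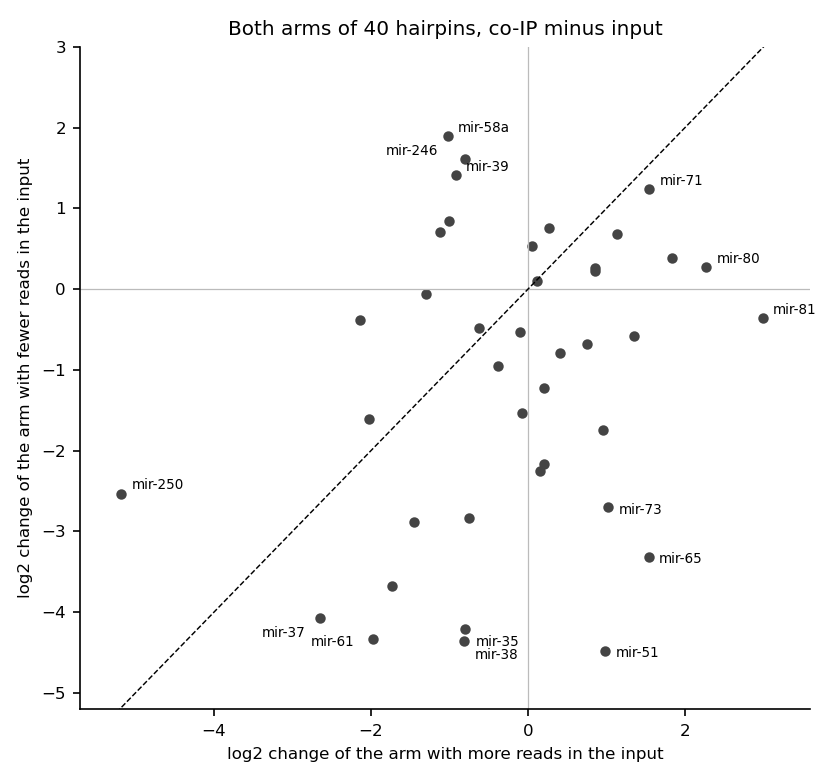
log2 change of the arm with more reads in the input (x axis) and of the arm with fewer (y axis) for the 40 hairpins with both arms tested; on the dashed line both arms change alike. Points below the line, such as mir-51, mir-65 and mir-73, lost the rarer arm relative to the abundant one, and mir-58a, mir-246 and mir-39 lie in the upper left, with the rarer arm higher and the abundant arm lower. The rarer arm of mir-246 passed the minimum only through the co-IP.

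Most clusters of miRNAs encoded together held calls in both directions. With hairpins on the same strand and at most 2000 bases apart counted as a cluster, 12 clusters had at least 2 hairpins with a tested arm, and 9 of them held both a higher and a lower member. Taking for each hairpin only the tested arm with more reads in the input, 7 of the 12 did. Over all tested miRNAs 26.4% were higher and 47.3% lower, and over all tested rows 7.45% and 85.7%. Groups of miRNAs encoded apart were not compared. The counts are therefore not a result about shared position. They also include arms that passed the minimum only through the input, such as miR-51-3p, miR-65-3p and miR-43-3p. In the cluster of mir-35 to mir-41 (II:11537608-11538404), 12 of 14 tested arms were lower, beside 85.7% of all tested rows, and the higher member was the rarer arm miR-39-5p. The lower arms include the 5p arms of mir-35 to mir-38, which passed the minimum only through the input. In the cluster of mir-54, mir-55 and mir-56 (X:13144691-13145094), miR-55-3p and miR-56-3p were higher and miR-54-3p was lower, at 2423, 1874 and 2245 RPM in the inputs and 1160, 948.8 and 1157 in the co-IPs. In the cluster of mir-42, mir-43 and mir-44 (II:11889811-11890118), miR-42-3p and miR-44-3p were higher and miR-43-3p lower. mir-240 and mir-786 lie within X:7882622-7882840, and miR-786-3p was 18.3-fold higher while both arms of mir-240 were lower, at -0.38 and -0.95. Calls went in 1 direction in the cluster of mir-61 and mir-250 (V:11769917-11770156), with 4 of 4 arms lower, and in that of mir-80 and mir-238 (III:8865270-8867425), with 2 of 3 arms higher and 1 not called. Of the 4 lower arms, miR-61-5p and miR-250-5p averaged 5.44 and 3.91 RPM in the co-IP and passed the minimum only through the input.

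Length and abundance were only weakly related to the changes. Over 147 tested miRNAs with an annotated mature length, the Spearman correlation of length and log2 change was -0.02, and over 148 that of the log2 input level and log2 change was 0.16. miRNAs are not independent, since members share hairpins and families, and both quantities come from the same libraries. miRNAs of 22 nt had a median log2 change of -0.36 (61 tested), those of 23 nt -0.48 (52 tested) and those of 21 nt 0.03 (14 tested). Of 33 tested miRNAs in introns of a gene on the same strand, 14 were higher and 12 lower (median -0.01). Of 89 outside protein-coding genes 19 were higher and 43 lower (median -0.38), and of 23 within a gene on the other strand 6 were higher and 13 lower (median -0.81). Over all tested miRNAs 26.4% were higher and 47.3% lower, with the median of -0.29 given above.

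The co-IP of another Argonaute, GFP::RDE-1 under the same nrfl-1 RNAi with 3 co-IP and 3 input libraries of its own, gave the miRNAs a partly different order. The limma fit for RDE-1 also held the rde-4(syb6665) input and co-IP libraries of GFP::RDE-1, which enter its minimum and its estimate of spread. The tables were normalised separately, so each change is set against its own input and no test was made between them. There, 21.3% of tested rows were called higher and 59.8% lower. Over 136 miRNAs tested in both, the log2 changes had a Pearson correlation of 0.56 and a Spearman correlation of 0.60, across miRNAs that share families and a counting pipeline. Of 37 miRNAs higher with ALG-1, 21 were higher with RDE-1, which is 56.8% of the first list and 61.8% of the 34 higher with RDE-1. Of 63 lower with ALG-1, 43 were lower with RDE-1, which is 68.3% of the first list and 65.2% of the 66 lower with RDE-1. The calls were opposite for 13 miRNAs, 6 higher with ALG-1 and lower with RDE-1, and 7 the reverse.

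miR-55-3p, miR-786-3p, miR-56-3p and miR-81-3p were higher in both co-IPs, with RDE-1 log2 changes of 2.55, 4.56, 2.93 and 2.92. miR-250-3p and miR-51-3p were lower in both, with RDE-1 values of -3.72 and -4.95. miR-243-3p differed most in size among the 10 largest gains, at 1.83 with ALG-1 and 6.91 with RDE-1, where it went from a mean of 77.2 to 9772 RPM. miR-61-5p was at -4.34 with ALG-1 and -0.84 with RDE-1, and miR-1830-3p at -4.35 and 0.02, the latter not called. miR-84-3p was lower with ALG-1 (-0.79) and higher with RDE-1 (5.22), as was miR-240-5p (-0.95 and 6.77), and miR-39-5p was the reverse (1.41 and -0.88). miR-1-3p, not called with ALG-1, was lower with RDE-1 at -2.13.

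**Figure D5:**
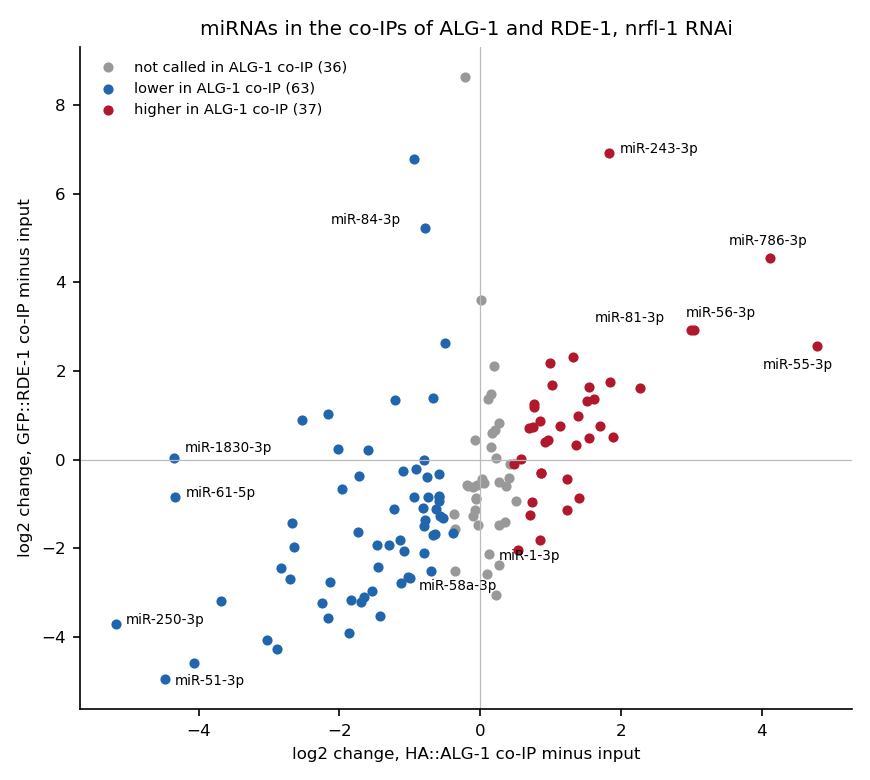
log2 change in the HA::ALG-1 co-IP (x axis) and in the GFP::RDE-1 co-IP (y axis), each against its own input under nrfl-1 RNAi, for the 136 miRNAs tested in both, coloured by the ALG-1 call. Most points run from the lower left to the upper right, and miR-243-3p (1.83 and 6.91) and miR-84-3p (-0.79 and 5.22) stand high on the RDE-1 axis. So do miR-789-2-5p (-0.22 and 8.63), the highest, and miR-240-5p (-0.95 and 6.77), which are not named in the figure.

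The rde-4(syb6665) arm of the HA::ALG-1 table asked whether the selection of miRNAs depends on rde-4. In the mutant 34 miRNAs were higher and 85 lower in the co-IP, beside 6.08% and 87.8% of all tested rows, and 97 were called the same way in both arms and 0 in opposite ways. The difference of enrichment was called for 0 of 148 miRNAs and for 0.152% of all tested rows in limma, with a lowest adjusted p of 0.181 for a miRNA and 42 miRNAs (28.4%) at an unadjusted p under 0.05, beside 69 of all tested rows (10.5%). The median difference, mutant minus wild type, was -0.30 over miRNAs and -0.13 over all tested rows. After scaling to equal totals over all rows the median was 0.11, and 7 miRNAs were called. Leaving out wild-type co-IP replicate 1 gave 3 calls and leaving out replicate 3 gave 1. miR-55-3p had a log2 change of 3.99 in the mutant against 4.78, and miR-250-3p of -5.26 against -5.18. These values do not show that the arms act alike, since differences up to 0.83 and down to -1.09 were estimated for single miRNAs.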

How the data were processed

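Small RNAs of 16 to 30 nt were gel-purified, per the labels' protocols, which give no RppH treatment for these libraries. The authors deposited RPM values made with tinyRNA, per the labels; its version, settings and genome build are not given in the sources used here. The RPM values of 6 libraries were compared in a limma 3.58.1 fit (R 4.3.3) on log2(RPM + 1) with a mean-variance trend, over all 12 libraries of the table, for rows averaging 10 RPM or more, with BH adjustment. The authors' 2-decimal RPM values were whole multiples of 1 read for 98.8% to 99.3% of low piRNA values (within 0.0055 RPM) but for 87.2% to 89.7% over all rows up to 1 RPM, so no count test was run.

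Rows named by rule were the 10 called, non-overlapping miRNAs with the largest change in each direction, the 8 most abundant, their other arms, the extremes of each family list and 5 hairpins in each direction; other rows named were chosen after their values were seen. Members and lists were chosen with earlier results of these data known. Positions are from WBcel235 (Ensembl release 115), matched by name for 437 of 439 rows. The labels do not say that replicates are separate cultures, so p-values measure the spread between these samples. The fit was tested on simulated data, and 6 of the 8 tables were not used. miRNA sequences were not used here. Alternatives were other pseudocounts, minimums and scalings, a replicate block, no trend, fewer libraries and leaving out each library.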

Additional observations from a re-analysis of the deposited data

Results flagged for a closer look

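A 23H-RNA row of mir-5592 (form E above) had a different enrichment in the 2 arms of the table. With wild-type rde-4 the means were 117.1 RPM (input) and 42.2 RPM (co-IP), and in rde-4(syb6665) animals 136.4 and 116.8 RPM, a difference of log2 changes of 1.24 ± 0.25 (SE, mutant minus wild type) with an adjusted p of 0.0328 in limma.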

How the results depend on the processing

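Calls of miRNAs in wild-type rde-4 numbered 102 to 108 without any 1 library (109 with all), and calls over all rows 605 to 613 (613 with all); hairpins numbered 70 to 77 (81 with all), RDE-1 miRNAs 95 to 104 and the share difference 5.65 to 6.05. With no minimum, 13543 rows and 217 miRNAs were called (60 higher, 157 lower), and with a minimum of 1 RPM 4121 rows and 171 miRNAs (119 lower); more rows are tested there. The RDE-1 count went from 111 to 189 with no minimum. The rde-4 difference was called for 5 miRNAs with no minimum, 5 with a minimum of 1 RPM, 7 with equal totals over all rows and 5 with equal miRNA totals, and for 0 to 3 without 1 library; the cause was not tested. The median log2 change over tested miRNAs was -0.29 as reported, -0.54 with equal totals over all rows and -0.63 with equal miRNA totals, with single miRNAs shifted by a median of -0.20 and -0.29; 36 and 35 of the 39 higher calls and 70 of the 70 lower calls remained, and lower calls numbered 81 and 86 in all. Among 51 named miRNAs, those that changed sign were not called as reported: with equal totals over all rows miR-1-3p (-0.082), miR-1-5p (-0.087) and miR-237-5p (-0.052), with equal miRNA totals miR-1-3p (-0.17), miR-80-5p (-0.014), miR-1-5p (-0.17) and miR-237-5p (-0.14), miR-1-5p without co-IP replicate 1 (-0.031), and miR-1-3p without co-IP replicate 3 (-0.23) or input replicate 1 (-0.021); without 1 library these ranged from -0.031 to 0.23 and from -0.23 to 0.45. Replicate numbers did not pair the libraries (correlations of deviations 0.05, -0.00 and -0.25); with the replicate block 614 rows, 110 miRNAs and 82 hairpins were called, 116 miRNAs with RDE-1, 0 miRNAs for the rde-4 difference, and the share difference was 5.90. Values below 0.244 RPM rest on few reads.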
